A study of Capra hircus with 3 samples.

Results

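The BMP, activin and TGF-beta signalling genes of goat skin were represented on the Agilent sheep array by 50 probes of 60 bases, printed on 54 of the 15208 spots that were not controls. A probe was a member when its array gene name began with BMP, SMAD, TGFB, INHB or GDF, or when its description named a bone morphogenetic protein, noggin, gremlin, follistatin, activin, inhibin, a growth differentiation factor, transforming growth factor beta or a SMAD. The members covered 31 of the 14314 gene names or sequence records on the array, with 17 probes for ligands, 9 for antagonists and binding proteins, 13 for receptors, 9 for SMADs and 2 for an inhibin binding protein that fitted none of these classes. Skin was taken from the side of the body of 6 female Arbas Cashmere goats aged 2 years, of 1 strain. The 3 goats of the short photoperiod group grazed, fed and drank from 9:30 to 16:30 and spent the rest of the day in a dark shed of about 0.1 lux, kept 1 degree below the outside temperature. The 3 goats of the natural photoperiod group grazed under natural conditions, and the sample titles call the same group long photoperiod. Each array carried RNA from 1 goat of either group, with the short photoperiod sample in Cy5 and the natural photoperiod sample in Cy3. Each reading is a log2 ratio with the short photoperiod channel on top, so a positive value is a higher level under the short photoperiod.

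BMPs, activins and TGF-betas are secreted ligands that bring together pairs of type I and type II receptor kinases at the cell surface, after which receptor-activated SMAD proteins join SMAD4 and enter the nucleus to regulate transcription. Activins and TGF-betas act mainly through SMAD2 and SMAD3 and BMPs through SMAD1 and SMAD5, while SMAD7 inhibits the pathway and extracellular proteins such as noggin, gremlin and follistatin hold the ligands away from their receptors. In skin, BMPs from the dermis and the inner bulge are known for keeping hair follicle stem cells at rest, noggin and other BMP inhibitors for the passage into growth, and TGF-beta 1 for the regression of the follicle.

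Several members were read by probes that overlap almost completely or that lie in a shared structural feature of the family, and these sequences decide which readings count as separate measurements. The ligands and several of their antagonists are cystine-knot proteins, and 3 probes from coding sequence are shown with a pair of cysteine codons, with any codon between them, in capitals.
INHBA: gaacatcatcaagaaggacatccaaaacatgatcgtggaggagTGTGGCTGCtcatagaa
INHA: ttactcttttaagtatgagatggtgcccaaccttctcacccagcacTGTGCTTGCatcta
gremlin-like: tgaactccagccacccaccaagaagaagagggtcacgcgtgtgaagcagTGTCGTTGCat
The letters searched were TGTNNNTGT, TGTNNNTGC, TGCNNNTGT and TGCNNNTGC, and they occurred as printed in 7 of the 50 member probes, or 14%, which were the probes of INHBA, INHA, noggin and the gremlin-like record. Among all 15008 probes of the array 1205 held them, or 8.03%. The INHBA, INHA and noggin probes are pairs that share 59 bases, so the 7 member probes are not separate stretches. The search took the letters in any reading frame. On the reverse strand they occurred in 4 member probes, or 8%, and in 7.22% of all probes, and counting either strand the shares were 22% and 14.6%. The probes of BMP7 are an example of near-duplicates, with the shared run in capitals.
BMP7, first probe: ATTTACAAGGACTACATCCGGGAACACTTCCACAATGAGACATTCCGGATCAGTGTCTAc
BMP7, second probe: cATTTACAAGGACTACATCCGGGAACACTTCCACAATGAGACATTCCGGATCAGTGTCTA
These share 59 bases and are 1 measurement for most purposes. The probes of BAMBI and of TGFBR1, in contrast, share no end, so that each gene has a pair of readings from different stretches of its transcript.
BAMBI, first probe: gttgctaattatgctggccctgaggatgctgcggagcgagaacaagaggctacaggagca
BAMBI, second probe: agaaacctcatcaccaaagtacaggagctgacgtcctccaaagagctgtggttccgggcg
TGFBR1, first probe: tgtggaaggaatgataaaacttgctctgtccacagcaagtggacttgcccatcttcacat
TGFBR1, second probe: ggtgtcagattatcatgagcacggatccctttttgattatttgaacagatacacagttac
All of these are sheep probe sequences as the array files print them, and the match of each to the goat transcript was not examined here.

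The median spot intensity of the 3 arrays was 4587 to 7120 in Cy5 and 2688 to 3911 in Cy3, and 0 member spots were saturated or carried an outlier flag. The arrays lay on 1 slide and were scanned together, and the dyes were swapped on 0 arrays, so dye bias of a probe cannot be told apart from the photoperiod. Over all measured probes the log2 ratios of replicates 1 and 2 correlated at r = 0.311, those of replicates 2 and 3 at 0.378 and those of replicates 1 and 3 at 0.194, a description across probes that are not independent of each other. With 3 arrays, each mean rests on few readings.

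A probe was called measured when both channels of its spots cleared the scanner software's limit for well above background on all 3 arrays, which held for 44 of the 50 members, covering 29 of the 31 genes or records. BMP15, an oocyte growth factor, was not well above background in either channel on any array. The inhibin binding protein was above it on 1 array in Cy3 with 1 of its probes and on 0 arrays in Cy5, and these are the genes without a measured probe. For ACVR1B 1 probe was well above background on 1 array in Cy5 and 2 in Cy3, and for TGFBR2 1 probe was below the limit on 1 array in Cy5, while the other probe of either gene was measured.

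No member probe passed the adjusted threshold for a difference between the photoperiods. With limma and Benjamini-Hochberg adjustment over 14977 tested probes, 0 of the 50 members had an adjusted p under 0.05, against 1 probe of the whole array, or 0.00668%. Unadjusted p under 0.05 was reached by 3 of the 44 measured members with a higher level under the short photoperiod, or 6.82%, where the share of all 13558 measured probes was 9.29%. With a lower level it was reached by 3 members, again 6.82%, against 9.96% of all measured probes. The higher readings were BMP2 and both probes of BMP7, and the lower ones were BMPR1B, SMAD2 and 1 of the probes of SMAD3. Counting the members that were not measured as well, the shares were 8% of the 50 upward, the added probe being the dim one of ACVR1B, and 6% downward, against 9.05% and 9.41% of all tested probes. All these shares lay below the share over the array, so the family did not stand out by the number of its differences. By the study's fold rule, a change to at least 2-fold or at most 0.5-fold, 0 members qualified on the mean, against 0.376% of all measured probes upward and 0.428% downward. In bulk skin, fewer cells of a type and less RNA per cell cannot be told apart.

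**Figure D1:**
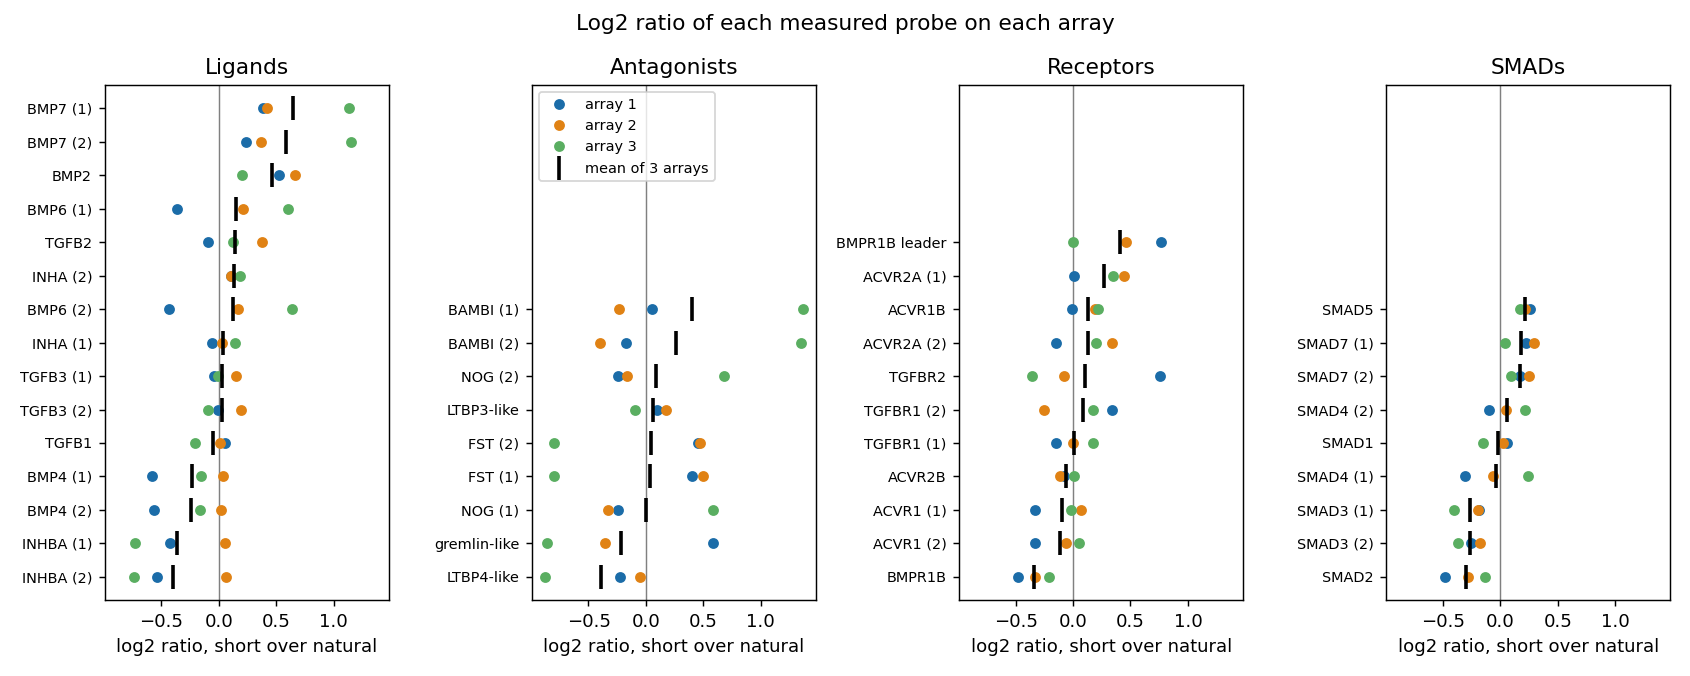
Log2 ratio of the short over the natural photoperiod for the 44 measured probes (x axis), by class, with 1 dot per array and a bar at the mean of the 3 arrays. Numbers in brackets mark the first and the second probe of a gene, and the widest spread between arrays is seen for BAMBI, whose ratio on replicate 3 was 1.37 and 1.35.

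The plot of ratios by array shows how the members varied. The means of the 44 probes ran from -0.40 to 0.65, with a median of 0.040 beside -0.0045 for all measured probes. The median size of the ratio, without its sign, was 0.136 for the members and 0.165 for all measured probes. The sign was the same on all 3 arrays for 13 members, or 29.5%, against 43.7% of all measured probes. Of these, 8 were higher under the short photoperiod on each array, or 18.2% against 21.6%, and 5 were lower, or 11.4% against 22.1%. Replicate 3 held the widest member ratios, with an SD across members of 0.544 beside 0.347 on replicate 1 and 0.260 on replicate 2. On that array 14 of the 44 members, or 31.8%, lay beyond 0.5 on the log2 scale, where 21.2% of all measured probes did. These were both probes of BAMBI, follistatin, noggin, BMP6, BMP7 and INHBA, and the gremlin-like and LTBP4-like records. Apart from BAMBI, these pairs overlap by all but 1 base, so the member shares on this array count the same reading more than once. Past 2-fold on replicate 3 were 4 members, the probes of BAMBI and BMP7, or 9.09%, against 5.21% of all measured probes. On replicate 2, 2 members lay beyond 0.5, or 4.55%, against 11.3% of all measured probes.

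Marker genes of several skin cell types also had ratios away from 0. The listed markers were matched by array gene name only, so listed genes printed under another name were left out. Of the listed epidermal markers, KRT14, TP63 and SFN were measured, and all 4 of their probes had positive mean ratios, with array medians of 1.28, 0.88 and 0.33. Their summed level was 129500 to 153700 intensity units in the short photoperiod goats and 72850 to 98010 in the natural photoperiod goats, and KRT5 was not above background. The only listed hair follicle marker matched in this way, the root sheath keratin K27, had ratios of 0.52, 1.04 and 1.98. KRT34 and KRT85 were also listed and were not matched, though the paper reports both keratins as higher under the short photoperiod. All 14 measured leukocyte probes, from 8 of 9 genes, had negative mean ratios, with array medians of -0.45, -0.26 and -0.73, and CD4 was not above background. Their summed level was 177600 to 206000 under the short photoperiod and 248800 to 342300 under natural conditions. Of the dermal fibroblast probes matched by name 2 were higher and 3 lower, with array medians of -0.73, -0.88 and 0.015. The higher ones were the probes of DCN, with mean ratios of 0.030 and 0.13, and the lower ones those of COL1A1 and COL3A1. Their summed levels overlapped between the groups, at 131500 to 137400 and 108100 to 159000. Most of this sum came from the bright DCN probes, so it says little about the collagens. LUM, also listed, lay on the array under a record name and was left out of these values. The only endothelial marker matched by name, SELE, had array medians of -1.02, -0.99 and -0.52 over its probes. Its summed levels were 3527 to 5233 under the short photoperiod and 7833 to 9810 under natural conditions. ENG, also listed, lay on the array under a record name and was left out, so SELE alone stands for this list. Of the 7 adipocyte and sebocyte probes 3 were higher and 4 lower, with summed levels of 22150 to 29250 and 29480 to 40250. Epidermal, follicle and fibroblast markers were thus measured in the skin of all 6 goats. The part of these cell type differences in the member ratios was not tested.

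Among the ligands, the BMPs went different ways. BMP2, a bone morphogenetic protein active in the hair matrix and the epidermis, gave 0.52, 0.66 and 0.20 as log2 ratios of replicates 1, 2 and 3. All were positive, and replicate 3 was the lowest. The mean was 0.46 ± 0.24 (SD, n = 3), a 1.38-fold difference with a limma p of 0.0155 and an adjusted p of 0.201. Its normalised log2 intensity in the short photoperiod goats was 13.85, 13.77 and 13.29, and in their natural photoperiod partners 13.33, 13.11 and 13.08. The groups overlapped, because the lowest short photoperiod goat lay below the highest natural photoperiod goat.

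BMP7, a related ligand of epithelium and dermis, gave the highest mean of all members. Its first probe had ratios of 0.39, 0.42 and 1.13 and its second 0.23, 0.37 and 1.16. Both were positive on every array, and replicate 3 stood well above the others. The means were 0.65 ± 0.42 and 0.59 ± 0.50 (SD, n = 3), with adjusted p of 0.202 and 0.244 in limma. The levels of the first probe were 12.14, 11.75 and 11.76 in the short photoperiod goats and 11.76, 11.33 and 10.63 in the natural photoperiod goats. The wide ratio of replicate 3 therefore went with a low level in its natural photoperiod goat, while the short photoperiod goat of that pair was close to that of replicate 2. Without replicate 3 the mean was 0.40 for the first probe and 0.30 for the second, and the adjusted p 0.289 and 0.408.

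BMP4, which the dermal papilla produces, had ratios of -0.59, 0.038 and -0.15 with 1 probe and -0.57, 0.017 and -0.16 with the other. Only replicate 1 lay far from 0, and the means of -0.23 ± 0.32 and -0.24 ± 0.30 had adjusted p of 0.449 and 0.427 in limma. BMP6, known from keratinocyte differentiation and the resting bulge, had ratios of -0.36, 0.21 and 0.60 with its first probe and -0.43, 0.17 and 0.64 with its second. The signs of BMP6 differed between the arrays and its means were 0.15 ± 0.48 and 0.13 ± 0.54.

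INHBA, the subunit of activin A, had the lowest mean of all members with 1 of its probes. Its ratios were -0.42, 0.051 and -0.73 with 1 probe and -0.53, 0.067 and -0.74 with the other, which is the INHBA probe printed above. Replicates 1 and 3 were lower under the short photoperiod and replicate 2 was close to 0. The means of -0.37 ± 0.39 and -0.40 ± 0.42 had adjusted p of 0.331 and 0.315 in limma. The levels of the printed probe overlapped, at 11.88, 12.64 and 12.41 in the short photoperiod goats and 12.41, 12.57 and 13.15 in the others. INHA, the inhibin alpha subunit, which joins an activin subunit to form an activin antagonist, stayed within -0.054 and 0.18 on every array with both probes.

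The TGF-betas lay near 0. TGFB1 had ratios of 0.052, 0.0067 and -0.21, with a mean of -0.050 ± 0.14 (95% interval -0.32 to 0.22). TGFB2, a ligand of follicle formation, had -0.090, 0.38 and 0.13, and its mean of 0.14 ± 0.24 had an adjusted p of 0.587 in limma. The probes of TGFB3, which acts through the same receptors, had means of 0.033 and 0.030, with 95% intervals of -0.23 to 0.29 and -0.25 to 0.31. The interval of TGFB2 ran from -0.19 to 0.47, and a 2-fold difference, 1 on the log2 scale, lies outside each of these intervals.

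**Figure D2:**
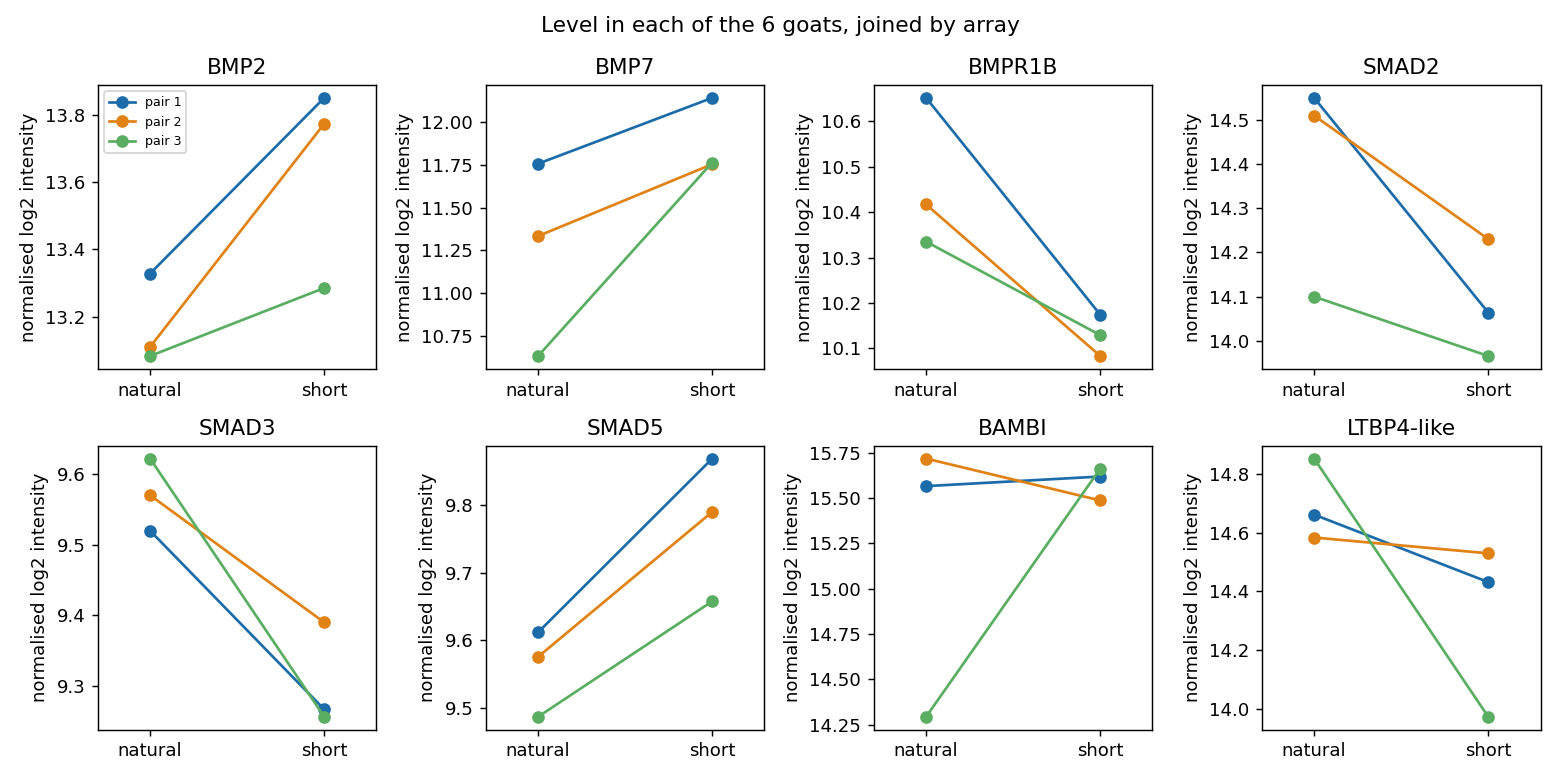
Normalised log2 intensity (y axis, a scale of its own in each panel) of 8 members in the natural and the short photoperiod goat of each pair, joined by a line per array. BMP2 and BMP7 were higher in the short photoperiod goat of every pair, BMPR1B, SMAD2, SMAD3 and LTBP4-like lower, and for BAMBI 1 natural photoperiod goat lay apart at 14.29.

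The antagonists spread widely between arrays. BAMBI, a receptor-like protein of the cell membrane that lacks a kinase and blocks BMP and TGF-beta receptors, had ratios of 0.054, -0.23 and 1.37 with its first probe and -0.18, -0.40 and 1.35 with its second. The probes share no bases, yet both placed replicate 3 far above the other arrays. The means were 0.40 ± 0.85 and 0.26 ± 0.95 (SD, n = 3), with adjusted p of 0.551 and 0.727 in limma. As the plot of levels by goat shows, the levels of the first probe were 15.62, 15.49 and 15.66 in the short photoperiod goats and 15.57, 15.72 and 14.29 in the natural photoperiod goats. A single natural photoperiod goat was low, and the other 5 goats lay within 15.49 and 15.72. Without replicate 3 the means turned to -0.089 and -0.29.

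Noggin, which binds BMP2 and BMP4 and opens the growth phase of the follicle, also had its highest ratios on replicate 3. Its natural photoperiod goat of that array was not the lowest, at 9.57 beside 9.38 and 10.28 with 1 probe. Its ratios were -0.24, -0.33 and 0.58 with 1 probe and -0.24, -0.16 and 0.68 with the other. Replicates 1 and 2 were lower under the short photoperiod and replicate 3 was higher, and the means of 0.0031 ± 0.50 and 0.091 ± 0.51 had adjusted p of 0.994 and 0.834 in limma. Follistatin, the binding protein of activins, split the other way. Its ratios were 0.41, 0.50 and -0.80 with the first probe and 0.46, 0.47 and -0.80 with the second. The mean was 0.035 ± 0.73 for the first probe and 0.043 ± 0.73 for the second, with adjusted p of 0.955 and 0.945 in limma. Without replicate 3 the follistatin means were 0.45 and 0.46 and the adjusted p stayed above 0.05.

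The gremlin-like record, from a BMP antagonist of the dermis, had ratios of 0.58, -0.36 and -0.86, each array in a different range. Its mean was -0.21 ± 0.73 with an adjusted p of 0.714 in limma. The latent TGF-beta binding proteins bind TGF-beta in its latent form and anchor it in the matrix. The record resembling LTBP4 had ratios of -0.23, -0.053 and -0.88, lower under the short photoperiod on every array. These average to -0.39 ± 0.44, and limma gave an adjusted p of 0.339. Its levels did not overlap, at 14.43, 14.53 and 13.97 in the short photoperiod goats and 14.66, 14.58 and 14.85 in the natural photoperiod goats. Its mean was -0.14 without replicate 3 and -0.048 after median centring. The record resembling LTBP3 had 0.097, 0.17 and -0.091 and thus no common sign.

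Among the measured receptor probes, an unadjusted p under 0.05 was reached by BMPR1B alone. BMPR1B, a type I receptor of BMPs also called ALK6, was represented by a probe printed on 5 spots of each array, taken from its mRNA record. Its ratios were -0.48, -0.33 and -0.21, lower under the short photoperiod on every array. The mean was -0.34 ± 0.14 (SD, n = 3), a level 0.790 times that of the natural photoperiod, with a limma p of 0.0242 and an adjusted p of 0.223. The levels were 10.17, 10.08 and 10.13 in the short photoperiod goats and 10.65, 10.42 and 10.34 in the natural photoperiod goats, with no overlap.

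A second BMPR1B probe gave readings in the opposite direction. It comes from a separate partial record of the leader, the stretch of the mRNA before the coding sequence, and had ratios of 0.77, 0.46 and -0.0018. This leader probe was dimmer, at 8.44, 8.37 and 8.02 in the short photoperiod goats and 7.67, 7.91 and 8.02 in the others. It was higher under the short photoperiod on replicates 1 and 2 and even on replicate 3, with a mean of 0.41 ± 0.39 and an adjusted p of 0.294 in limma. The size of this mean moved with the processing, to 0.11 after median centring, 0.23 without replicate 1, 0.61 without replicate 3 and 0.64 with Feature Extraction's own log ratio. The leader ratio exceeded that of the mRNA record by 1.25, 0.79 and 0.20 on the 3 arrays, a mean difference of 0.75 ± 0.52. The order was the same on each array, and the exact sign-flip permutation test, two-sided, gave p = 0.25, which is the smallest p that 3 arrays allow. The probes of this gene thus did not give 1 answer.

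The other receptors showed no common sign, apart from 1 probe. ACVR2A, a type II receptor of activins, had ratios of 0.0094, 0.44 and 0.35 with its first probe and -0.15, 0.34 and 0.20 with its second, with means of 0.27 ± 0.23 and 0.13 ± 0.25. Both probes were higher on replicates 2 and 3, and the adjusted p were 0.331 and 0.625 in limma. ACVR1, a type I receptor of BMPs and activins, had means of -0.094 ± 0.21 and -0.11 ± 0.19, each with a ratio of -0.33 on replicate 1 and values near 0 on the others. ACVR1B, the activin type I receptor, had a mean of 0.13 ± 0.12 and ACVR2B, another type II receptor, of -0.062 ± 0.064. TGFBR1, the TGF-beta type I receptor, had ratios of -0.15, 0.0031 and 0.18 with its first probe and 0.34, -0.26 and 0.17 with its second, the probes printed above. They agreed on replicate 3 only. TGFBR2, its type II partner, had 0.76, -0.080 and -0.36 with its measured probe, and the arrays spread in both directions.

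The SMADs were the class whose arrays went together most often. The sign was the same on all 3 arrays for 6 of the 9 probes, or 66.7%, compared with 29.5% of all members and 43.7% of all measured probes, and overlapping probes count more than once among these 6. SMAD2 and SMAD3, which carry activin and TGF-beta signals, were both lower under the short photoperiod. SMAD2 had ratios of -0.48, -0.28 and -0.13 and SMAD3 had -0.18, -0.20 and -0.40 with 1 probe and -0.25, -0.18 and -0.37 with the other. Every reading was below 0, with means of -0.30 ± 0.18, -0.26 ± 0.12 and -0.27 ± 0.094. The limma p were 0.0470, 0.0541 and 0.0441 and the adjusted p 0.265, 0.279 and 0.258.

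Levels of SMAD3 with its second probe were 9.27, 9.39 and 9.26 in the short photoperiod goats and 9.52, 9.57 and 9.62 in the natural photoperiod goats. The groups did not overlap for either SMAD3 probe. For SMAD2 they did, at 14.06, 14.23 and 13.97 against 14.55, 14.51 and 14.10. Among the measured members the short photoperiod goats all lay below the natural photoperiod goats for 4 probes, or 9.09%, against 7.15% of all measured probes, and these were SMAD3 with both probes, BMPR1B and LTBP4-like. All short photoperiod goats lay above the others for 2 probes, or 4.55%, against 6.25%, and these were SMAD5 and 1 of the probes of SMAD7.

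The BMP-type SMADs and the inhibitory SMAD went the other way or nowhere. SMAD5, which carries BMP signals, had ratios of 0.26, 0.21 and 0.17, the closest agreement between arrays among the members that kept 1 sign, with an SD of 0.043. Its mean of 0.21 had a limma p of 0.0742 and an adjusted p of 0.311, and its levels were 9.87, 9.79 and 9.66 against 9.61, 9.58 and 9.49. SMAD7, the inhibitory SMAD, had 0.22, 0.29 and 0.043 with 1 probe and 0.18, 0.25 and 0.096 with the other, all positive, with adjusted p of 0.398 and 0.396 in limma. SMAD1 had 0.061, 0.024 and -0.15, and the common partner SMAD4 had means of -0.041 ± 0.27 and 0.055 ± 0.15. All ratios of SMAD1 and SMAD4 lay within -0.30 and 0.24 and no common sign was seen.

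When the classes were compared, none kept its place between arrays. The median mean ratio was 0.038 for the 15 ligand probes, 0.043 for the 9 antagonist probes, 0.085 for the 11 receptor probes and -0.022 for the 9 SMAD probes. INHA was counted with the ligands, and the ligand median is the value of an INHA probe. The antagonist class includes the LTBP-like binding proteins, while chordin was not a member by the rule and is in no class. On replicates 1, 2 and 3 the ligand median was -0.054, 0.15 and 0.13, and the antagonist median 0.054, -0.16 and -0.091. The receptor median was -0.078, 0.0031 and 0.049 and the SMAD median -0.097, 0.024 and 0.043. The antagonists were thus the highest class on replicate 1 and the lowest on replicates 2 and 3, where the ligands were the highest. The SD of the array medians was 0.111 for the ligands and 0.0640 for the receptors, so that the medians of the classes lay as close to each other as those of 1 class on different arrays. No test between classes was made, since probes of 1 array share their goats.

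**Figure D3:**
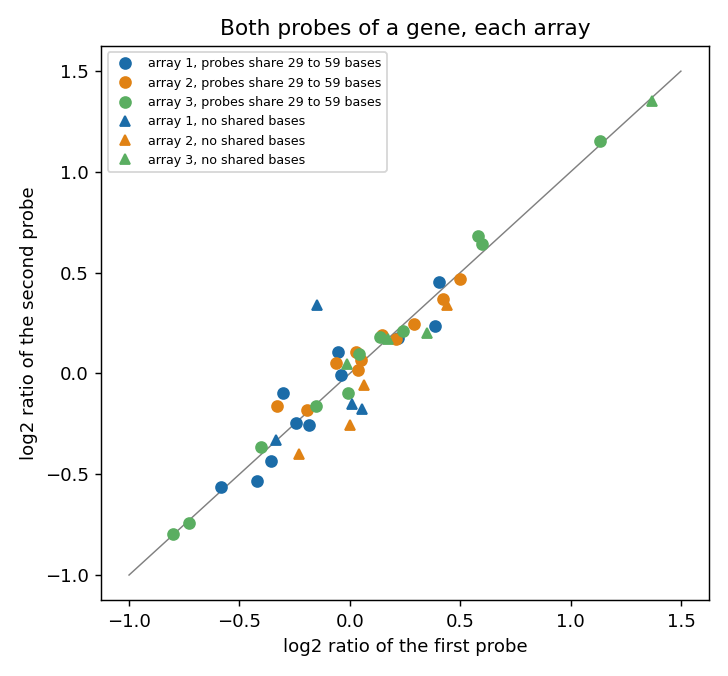
Log2 ratio of the first probe (x axis) against that of the second (y axis) for the 15 genes with a pair of measured probes, 1 point per array, with the line of equal ratios. Circles are pairs that share 29 to 59 bases and triangles the 4 pairs that share none. The points lie along the line except for TGFBR1 on replicates 1 and 2.

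Repeat readings of a gene were compared, with the BMPR1B probes, which come from different records, left out of these counts. Of 19 genes with a pair of probes, 15 had both measured, and in 11 of these the probes overlapped, 10 of them by all but 1 base. The median over genes of the largest difference between the probes on any array was 0.090 for overlapping pairs, within 0.021 and 0.21. For the 4 pairs without overlap, BAMBI, ACVR1, ACVR2A and TGFBR1, it was 0.196, within 0.12 and 0.49. The widest of these 4 was TGFBR1, whose first probe differed from the second by -0.49 on replicate 1 and 0.26 on replicate 2. The difference between the BMPR1B records, up to 1.25 on replicate 1, was wider than that of any of the 15 pairs. For TGFBR2, with 1 probe not measured, the readings differed by up to 0.73. The wide swings of BAMBI between goats were far larger than the difference between its probes, which was at most 0.23.

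Of 45 genes of the pathway that were listed by name, 10 were found on the array with 12 probes that are not members, all measured. Listed genes whose probes are members, such as BAMBI, were left out of this count. None passed the adjusted threshold in limma, and the unadjusted p was under 0.05 for 3 probes with a higher level and 0 with a lower level, beside 9.29% and 9.96% of all measured probes. CHRD, the BMP antagonist chordin, had ratios of 0.94, 0.34 and 0.19 with 1 probe and 0.88, 0.28 and 0.20 with the other, every reading being positive. Its means of 0.49 ± 0.40 and 0.46 ± 0.37 had adjusted p of 0.247 and 0.250 in limma. BGN, biglycan, a matrix proteoglycan that binds TGF-beta and BMP4, had 0.47, 0.53 and 0.083, with a mean of 0.36 ± 0.24 and an adjusted p of 0.248 in limma. CDKN1A, the cell cycle inhibitor that TGF-beta induces, had 0.36, 0.20 and 0.017, also without a reading below 0. CTGF and THBS1, matrix genes that the pathway induces, had no common sign across the arrays, with means of -0.25 and -0.18. The median of the 12 probes was 0.040, beside 0.040 for the members.

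**Figure D4:**
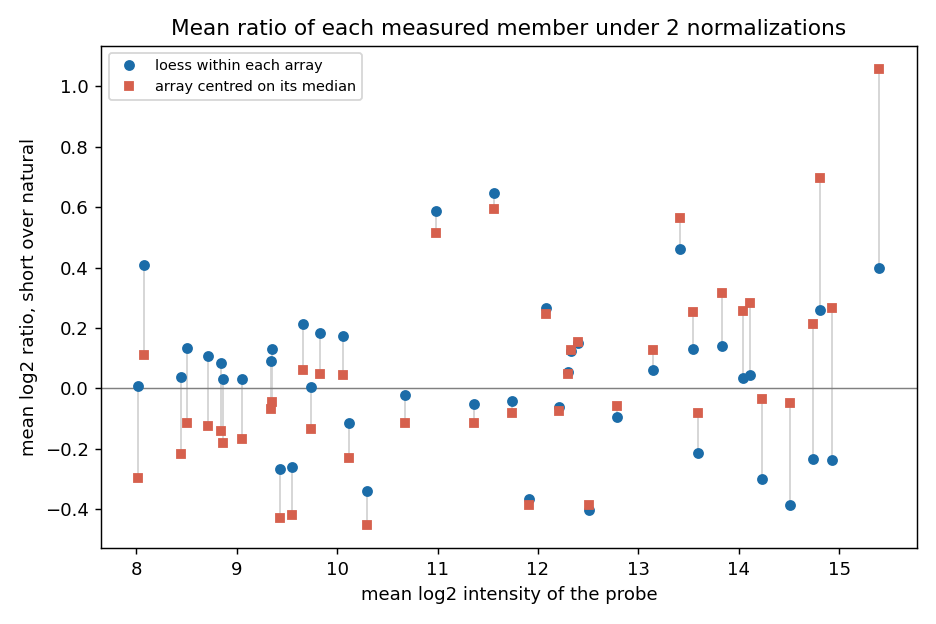
Mean log2 ratio of each measured member (y axis) against the mean log2 intensity of its probe (x axis), after loess within each array (circles) and after median centring (squares), with a grey line joining both values of a probe. Dim probes are lower and bright probes higher after centring than after loess.

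The size of several ratios depended on how the arrays were normalised. With median centring used instead of loess, the shift was small overall. It moved the median of all measured probes by 0.010, but when the probes were split by brightness into 4 equal groups it shifted the dimmest group by a median of -0.17 and the brightest by 0.36. The members include 18 probes of the dimmest group and 9 of the brightest. As the plot of both normalizations shows, the sign of 12 of the 44 members differed between them. BAMBI, a bright probe, had a mean of 1.06 after centring, with an adjusted p of 0.0745 in limma. Both probes of BMP4 turned to 0.21 and 0.27, the INHA probes to -0.22 and -0.11, and SMAD2 came close to 0 at -0.034. BMP2 at 0.56, BMP7 at 0.59 and 0.51, BMPR1B at -0.45 and SMAD3 at -0.43 and -0.42 kept their direction. SMAD5 and SMAD7, which lie among the dim probes, kept a positive sign at 0.045 to 0.062.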

How the data were processed

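Skin RNA of 6 goats was hybridised to 3 two-colour arrays. The deposited scanner files hold mean spot and median background intensity per channel, which the authors obtained with Agilent Feature Extraction 10.7.3.1, a log10 ratio of its processed signals, and well-above-background flags. The authors' value table holds log2 ratios, which equalled that log10 ratio turned to log2 within 0.001 for at least 99.97% of 13546 measured probes with 1 spot. All columns of per-sample values belonged to these arrays, and the files name no genome build. Of the 31 gene names 26 were found as symbols in the goat annotation.

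In R 4.3.3 with limma 3.58.1, normexp (offset 50) and loess within arrays gave the ratios. Control and flagged spots were left out, spots of a probe were averaged, and lmFit and eBayes tested each probe with values on at least 2 arrays against 0, with Benjamini-Hochberg adjustment and a threshold of 0.05. Channel levels came from Aquantile normalization. The paper states that each short photoperiod goat was set against a fellow of the same parent, and also that the goats were divided at random. It does not state that the goats of an array are such relatives. A pair here means the goats of 1 array, and each ratio lies within it. The p-values rest on the spread between 3 pairs of goats, which limma moderates toward the spread typical of all probes. The SD printed beside a p-value is the plain SD of the ratios and not the moderated spread that the test used. On simulated ratios of 14868 probes with 200 changed for this comparison, 57% were recovered at a log2 change of 1 and 97% at 2. Of the 161 calls 7 were false, and 0 calls were made when none changed. The simulated ratios were independent normal draws with spreads from the model that the test itself assumes. They held no dye bias and no changes shared between probes, so they cannot show how the test performs on these goats.

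The members, the lists of pathway and marker genes and the alternatives were chosen with earlier results of these data known. Genes named are members that kept 1 sign with an unadjusted p under 0.05, a fixed list of the main pathway genes, and pathway genes of lowest p with 1 sign. BMP6, INHA, BAMBI, the LTBP-like records, the gremlin-like record, ACVR1B and the matrix targets were named after their values were seen. Alternatives covered background correction, the log ratio, normalization, dim probes, flags, each array left out and the test. The values of 1 pathway gene are not reported here. The tissue sections and the qPCR of the study were left out, and plots were made in matplotlib 3.10.9.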

Additional observations from a re-analysis of the deposited data

How the results depend on the processing

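BMP2, BMP7, BMPR1B, SMAD2 and SMAD3 kept their sign under all 13 alternatives, as did INHBA, LTBP4-like, SMAD5 and SMAD7, and 0 members passed the adjusted threshold in any of them. Many of the alternatives could not have turned these signs. The ratios of all of these but INHBA had 1 sign on every array, so leaving out an array could not turn them. Changing only the test, the probes tested or the flags left the means as they were. Across the alternatives BMP2 lay between 0.36 and 0.59 (adjusted p 0.052 to 0.680), the first BMP7 probe between 0.40 and 0.78, BMPR1B between -0.45 and -0.27, SMAD2 between -0.38 and -0.034, LTBP4-like between -0.55 and -0.048 and the BMPR1B leader probe between 0.11 and 0.64. Probes called over the whole array numbered 18 with Feature Extraction's own log ratio (15 higher), 14 with the authors' value table (11 higher), 1885 after median centring (1013 higher), 161 with the channels kept separate and the correlation within spots as the replicate block (89 higher) and 0 with the channels as unpaired samples without that block. Those counts were 0 to 0 with 1 array left out, where limma gave 1601 to 2427 probes an unadjusted p under 0.05, and 1081 did so in the unpaired fit. Members with an unadjusted p under 0.05 numbered 1 in the unpaired fit, which was BMP2, and 3 to 7 with 1 array left out, 3 without replicate 2. Of these BMP7 was present each time, BMP2, BMPR1B and SMAD2 only without replicate 3, and SMAD3 never. The count of members changed at least 2-fold was 1 after median centring, BAMBI. Leaving out 1 array moved the antagonist median between -0.089 (without replicate 3) and 0.040 and the SMAD median between -0.031 and 0.090 (without replicate 1), and the receptor median was -0.074 after median centring. Signs differed for 12 of 44 members after median centring and for 12 without replicate 3, which turned BAMBI, noggin and BMP6 negative, for 6 without replicate 1 and for 4 without replicate 2. The cause was not tested.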
